A study of Mus musculus with 12 samples.

Results

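TCL1-192 leukaemia cells that bound phosphatidylcholine (PtC+) were compared with TCL1-192 cells that did not bind it (PtC-). The comparison took every array with these titles, 4 PtC+ and 4 PtC- arrays, which are 8 of the 12 Illumina mouse bead arrays of the series. Each class held 2 arrays from the peritoneal cavity and 2 from the spleen, numbered 1 and 2 in the labels. Peritoneal cells of wild type and young TCL1 genotype, with a lone PtC+ and a lone PtC- array each, are used here only as single values.

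All 4 groups carried the genotype TCL1-192 on a mixed C3H and C57BL/6 background, and the labels call the cells chronic lymphocytic leukaemia (CLL) cells. The groups were PtC+ peritoneum, PtC- peritoneum, PtC+ spleen and PtC- spleen. The sources used here do not give the meaning of 192, the promoter behind TCL1, the age or number of animals, the sorting gates or whether the leukaemia was 1 clone. The labels do not say that the numbered arrays came from separate animals. The p-values below therefore measure only the spread between these arrays, which may be technical.

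Phosphatidylcholine is a membrane lipid and a self antigen for many B-1 cells, a B cell type abundant in the peritoneal cavity of mice. Mouse B-1 receptors that bind it often use heavy chain variable genes of the VH11 or VH12 families, paired with particular kappa chains. TCL1 is an oncogene that activates the kinase AKT, and mice that express it in B cells develop an expansion of CD5+ B cells used as a model of CLL. The series asks which expression signatures go with responsiveness to autoantigen.

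Signals were background corrected, quantile normalized and put on a log2 scale, on which a difference of 1 is a 2-fold difference. Tests covered 12067 genes detected on at least 2 of the 8 arrays. The number of arrays limits the precision. A signal called undetected is not above background, so differences that rest on one are only approximate. On 7 of the arrays 13825 to 15030 of 45281 probes were detected, at a median signal of 105.17 to 121.41. The PtC- peritoneal array of number 2 stood apart, with 10711 probes detected and a median signal of 219.22. Its group had a root mean square SD of 0.549 between arrays, against 0.303 in PtC+ peritoneum, 0.249 in PtC+ spleen and 0.215 in PtC- spleen. Results that rest on it are given with and without the number 2 peritoneal pair. An alternative kept the background correction but used median centring in place of quantile normalization (normexp and median centring). With it the median difference of all genes was 0.15 instead of 0.02. List directions that flip there are given beside the list. The first principal component of the 8 arrays (58.2% of the variance) separated spleen, at 35.72 to 47.14, from peritoneum, at -53.16 to -20.79. The next component (21.5%) set the PtC- peritoneal array of number 2, at -56.81, apart from the others, at -3.77 to 30.83. Neither component set PtC+ apart from PtC- arrays in the same direction in both tissues.

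The B cell label was checked against defining markers. Of 8 markers 6 were detected on all 8 arrays, among them the receptor chain Cd79b at 14.34 to 14.75. Pax5 was detected on fewer than 2 arrays, and Cd79a and the B-1 marker Cd5 were not analysed here. The median PtC difference of the 6 markers was -0.16, and 0.19 with median centring. Most macrophage markers were peritoneal: of the 19 tested, 18 and 19 were detected on the PtC+ and 19 and 16 on the PtC- peritoneal arrays, against 4 on each splenic array. Their summed signal, on a linear scale, was 30958 and 57126 on PtC+ and 31836 and 46133 on PtC- peritoneal arrays, and 1824 to 2038 on the splenic arrays. The complement genes C1qa, C1qb and C1qc were undetected on the splenic arrays of both classes. In such bulk samples, fewer cells of a type and less RNA per cell cannot be told apart.

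Across both tissues no gene passed the test between PtC+ and PtC- cells. With tissue as a term, 0 of 12067 genes had a limma adjusted p under 0.05 (Benjamini-Hochberg over all genes, lowest adjusted p 0.733), and 659 (5.46%) had an unadjusted p under 0.05. Of these, 389 (3.22%) were higher and 270 (2.24%) lower in PtC+ cells. The median standard error (SE) of a difference was 0.204, and 7 genes differed by more than 1. All PtC+ arrays lay above all PtC- arrays in both tissues for 415 genes (3.44%), and below them for 441 (3.65%). The values below describe the direction and size of differences in these arrays, and each has an adjusted p of 0.733 or higher over both tissues.

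Genes of cell division were mostly higher in PtC+ than PtC- cells. Mitosis and spindle genes, DNA replication genes and replication-dependent histones each had a median above 0 in all 4 pairs of arrays with the same tissue and number, but in the number 2 peritoneal pair the mitosis median of 0.07 was below the 0.10 of all genes. These genes are read by cells in cycle, since replication needs new nucleotides and histones, and the spindle then parts the chromosomes. The promoters of such genes are known for a few short sequences: sites of E2F factors in genes of DNA replication, the cell cycle homology region (CHR) in genes of mitosis, and the CCAAT box of NF-Y in both and in histones.

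To show what these promoters hold, 1 member of each list is printed from RefSeq (GRCm38.p6), from 250 bases before to 50 after its start. Each is the member with the highest moderated t over both tissues that held its list's motif, read 5′ to 3′ along the gene's strand. Genes on 1 chromosome were left out of this choice, and only the first listed window of each gene was searched. Capitals mark the E2F letters (TTTGGCGC, TTTGCCGC, TTTCGCGC or TTTCCCGC), the CHR letters (TTTGAA) and the CCAAT box (CCAAT), on either strand, and matches of different motifs may share bases. Rfc3 encodes a subunit of the clamp loader of DNA replication (chr5:151651159-151651458, minus strand), Aurka the mitotic kinase Aurora A (chr2:172370521-172370820, minus strand) and Hist1h3c, now H3c3, a histone H3 (chr13:23745472-23745771, minus strand).
Rfc3: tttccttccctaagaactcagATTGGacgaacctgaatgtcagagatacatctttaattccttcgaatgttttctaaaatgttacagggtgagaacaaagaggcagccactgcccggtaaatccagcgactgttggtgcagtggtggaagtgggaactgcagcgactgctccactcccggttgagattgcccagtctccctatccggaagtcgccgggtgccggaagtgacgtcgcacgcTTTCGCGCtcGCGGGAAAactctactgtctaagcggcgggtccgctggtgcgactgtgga
Aurka: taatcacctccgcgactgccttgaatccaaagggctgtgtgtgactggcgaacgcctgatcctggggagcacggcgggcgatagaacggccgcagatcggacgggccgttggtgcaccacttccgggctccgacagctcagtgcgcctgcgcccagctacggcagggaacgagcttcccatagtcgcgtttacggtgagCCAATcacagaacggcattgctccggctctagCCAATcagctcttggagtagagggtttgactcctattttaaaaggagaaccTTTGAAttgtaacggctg
Hist1h3c: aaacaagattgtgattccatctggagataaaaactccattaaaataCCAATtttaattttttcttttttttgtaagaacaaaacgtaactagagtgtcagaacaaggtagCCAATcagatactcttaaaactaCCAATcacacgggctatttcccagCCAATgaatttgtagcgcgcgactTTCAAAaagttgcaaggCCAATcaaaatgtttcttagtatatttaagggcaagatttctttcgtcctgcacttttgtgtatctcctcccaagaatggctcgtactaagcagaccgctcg
The Rfc3 window held 2 E2F matches and 1 CCAAT box, the Aurka window 1 CHR match and 2 CCAAT boxes, and the Hist1h3c window 5 CCAAT boxes and 1 CHR match.

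Across the lists, E2F letters were found in 27.5% of 40 DNA replication promoters, 6.98% of 43 mitosis promoters and 19.6% of 46 histone promoters, against 4.24% of the 7569 tested genes with a promoter in the table. CHR letters were found in 69.8% of mitosis promoters, 20.0% of DNA replication promoters and 43.5% of histone promoters, against 12.2% of all tested genes. CCAAT boxes were found in 67.4% of mitosis promoters, 60.0% of DNA replication promoters and 82.6% of histone promoters, against 39.3% of all tested genes. Of all 27025 promoters in the table the shares were 2.32% for E2F, 18.1% for CHR and 37.9% for CCAAT. The promoters of B cell receptor signalling genes held them in 0% (E2F), 12% (CHR) and 24.0% (CCAAT) of 25. A match describes the letters and is not evidence that a factor bound there.

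Among the mitosis and spindle genes, 49 of 52 tested members (94.2%) were higher in PtC+ cells, against 53.3% of all genes tested. Their median difference was 0.30 log2 units, against 0.02 for all genes. No member passed the test, and 14 of 52 had an unadjusted p under 0.05, all higher, where 3.22% of all genes did. The pair medians were 0.40 and 0.07 in peritoneum and 0.44 and 0.29 in spleen, for numbers 1 and 2, against -0.01, 0.10, -0.01 and 0.01 for all genes. The difference was above 0 in all 4 pairs for 21 members (40.4%, against 8.59% of all genes), and 11 members had PtC+ arrays above PtC- arrays in both tissues, as 3.44% of all genes did. Of the 41 members detected on all 8 arrays, 39 were higher, with a median of 0.29. Without the number 2 peritoneal pair the median was 0.41 and 50 of 52 were higher.

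Mxd3, which encodes a MAX dimerization protein expressed in dividing cells, differed most among them. Its log2 signal was 7.67 and 7.68 in PtC+ peritoneum, against 6.30 and 6.52 in PtC- peritoneum, and 7.55 and 8.02 in PtC+ spleen, against 6.91 and 7.22 in PtC- spleen. The arrays of the classes did not overlap in either tissue, and the difference was 0.99 ± 0.19 (SE). Stmn1, the microtubule regulator stathmin, measured 7.16 and 7.57 in PtC+ against 6.18 and 5.92 in PtC- peritoneum, and 6.98 and 7.18 in PtC+ against 6.51 and 6.79 in PtC- spleen. It was undetected on the PtC- peritoneal array of number 2, and its difference of 0.88 ± 0.22 was 0.62 without the number 2 peritoneal pair.

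Cenph, a kinetochore protein, was between 6.81 and 7.20 on the 4 PtC+ arrays and between 6.03 and 6.58 on the 4 PtC- arrays, a difference of 0.69 ± 0.16, though it was undetected on the PtC- peritoneal array of number 2. Aurka was at 8.66 and 8.60 in PtC+ against 7.61 and 8.01 in PtC- peritoneum, and at 8.55 and 8.80 in PtC+ against 8.06 and 8.44 in PtC- spleen. Every PtC+ array was above every PtC- array for both genes, across tissues as well as within them. The kinetochore gene Cenpi differed by 0.98 ± 0.23, but was undetected on both PtC- peritoneal arrays, where PtC+ cells were at least 1.57-fold higher. Such a bound sets the undetected arrays at their lowest detected signal.

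Not all division genes followed this order. The proliferation marker Mki67, named after its values were seen, was lower in PtC+ than PtC- peritoneum (-0.19 ± 0.31) and higher in PtC+ than PtC- spleen (0.75 ± 0.31). The mitotic kinase Plk1, also named afterwards, differed by -0.39 ± 0.25 in peritoneum and 0.42 ± 0.25 in spleen. In the plot of tissue differences 13 of the 41 mitosis genes detected on all arrays lie below 0 in peritoneum and above 0 in spleen. So do 1890 of all 6993 genes detected on all arrays.

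**Figure D1:**
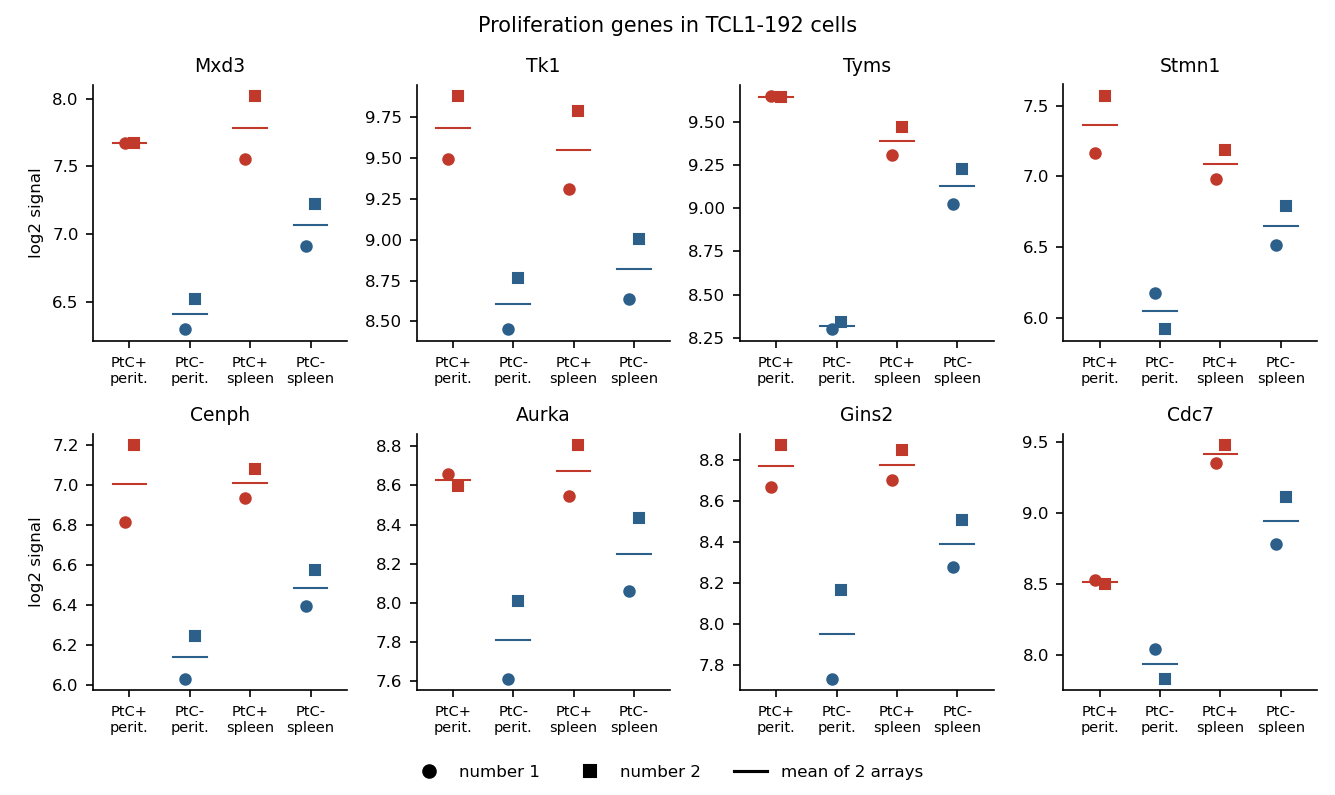
Log2 signal (y axis, its own range in each panel) of 8 proliferation genes on the 8 TCL1-192 arrays, PtC+ in red and PtC- in blue, with circles for number 1, squares for number 2 and a line at the mean of 2 arrays. In each of these genes both PtC+ arrays lie above both PtC- arrays within the peritoneum and within the spleen, though Stmn1 and Cenph were undetected on the PtC- peritoneal array of number 2.

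The DNA replication and nucleotide synthesis genes had a median of 0.25, and 39 of 48 tested (81.2%) were higher in PtC+ cells. None passed the test, and 10 had an unadjusted p under 0.05, all higher, where 3.22% of all genes did. In all 4 pairs 19 members (39.6%, against 8.59% of all genes) were above 0, and 0 were below 0 (8.03% of all genes). Tk1, the thymidine kinase of the nucleotide salvage pathway, measured 9.49 and 9.88 in PtC+ against 8.45 and 8.76 in PtC- peritoneum, and 9.31 and 9.79 in PtC+ against 8.64 and 9.01 in PtC- spleen. The 4 PtC+ arrays were all above the 4 PtC- arrays, with a difference of 0.90 ± 0.19. Its 2 probes differed in size, at 0.40 and 0.90.

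Tyms, thymidylate synthase, which makes the thymidine nucleotide from uridine, was at 9.65 and 9.64 in PtC+ against 8.30 and 8.34 in PtC- peritoneum. In spleen it was at 9.31 and 9.47 in PtC+ against 9.03 and 9.23 in PtC- cells. The peritoneal difference of 1.32 ± 0.18 had an adjusted p of 0.171, and the splenic one was 0.26 ± 0.18, with PtC+ arrays above PtC- arrays in each. Gins2, a subunit of the replicative helicase, differed by 0.60 ± 0.17, and Cdc7, the kinase that starts replication at origins, by 0.52 ± 0.15. Both had non-overlapping classes in each tissue. Rfc3, whose promoter is printed above, was at 7.69 and 7.89 in PtC+ against 6.78 and 7.36 in PtC- peritoneum, and at 7.68 and 7.95 in PtC+ against 7.24 and 7.94 in PtC- spleen. Its splenic arrays overlapped, and the difference was 0.47 ± 0.22. The clamp Pcna, named after its values were seen, differed by 0.95 ± 0.34 in peritoneum and by -0.06 ± 0.34 in spleen.

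The replication-dependent histones had a median of 0.28, with 42 of 51 tested (82.4%) higher in PtC+ cells. Of these histones 11 had an unadjusted p under 0.05, all higher, where 3.22% of all genes did. They had the largest share of members with PtC+ above PtC- arrays in both tissues among the lists of at least 20 tested genes, 13 of 51 (25.5%, against 3.44% of all genes), and 1 member lay below. Their difference was larger in spleen, with a median of 0.31 and 48 of 51 above 0 (49.6% of all genes), than in peritoneum, with a median of 0.12 and 34 above 0 (52.9% of all genes). The number 1 and 2 pairs had medians of 0.07 and 0.13 in peritoneum and 0.37 and 0.26 in spleen. Histone genes are near-identical copies, so their probes may share signal and the assignment to 1 gene is uncertain.

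Hist2h2ab, a histone H2A now called H2ac21, was at 12.38 and 12.39 in PtC+ against 11.26 and 11.36 in PtC- spleen. In the peritoneum it was at 10.57 and 10.53 in PtC+ against 10.44 and 10.66 in PtC- cells. Its splenic difference was 1.07 ± 0.17, and its peritoneal arrays overlapped at 0.00 ± 0.17. Hist1h2ag, another H2A (H2ac11), behaved alike, with a splenic difference of 0.77 ± 0.16 and a peritoneal one of 0.01 ± 0.16.

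Hist1h3c was at 7.41 and 7.42 in PtC+ against 6.29 and 6.39 in PtC- spleen, a difference of 1.08 ± 0.18. In peritoneum it was at 5.81 and 5.73 in PtC+ cells, and undetected on both PtC- arrays. Hist1h4i, a histone H4 (H4c9), differed by 0.43 ± 0.15 over both tissues with no overlap in either. Hist2h2bb was detected on all 4 PtC+ arrays and on no PtC- array, at least 1.04-fold higher in PtC+ cells, a bound set by the detection limit. The linker histone H1f0, which is not made with replication, differed by 1.06 ± 0.32, and by 0.65 without the number 2 peritoneal pair, and was undetected on PtC- peritoneal array 2 and PtC- splenic array 1.

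**Figure D2:**
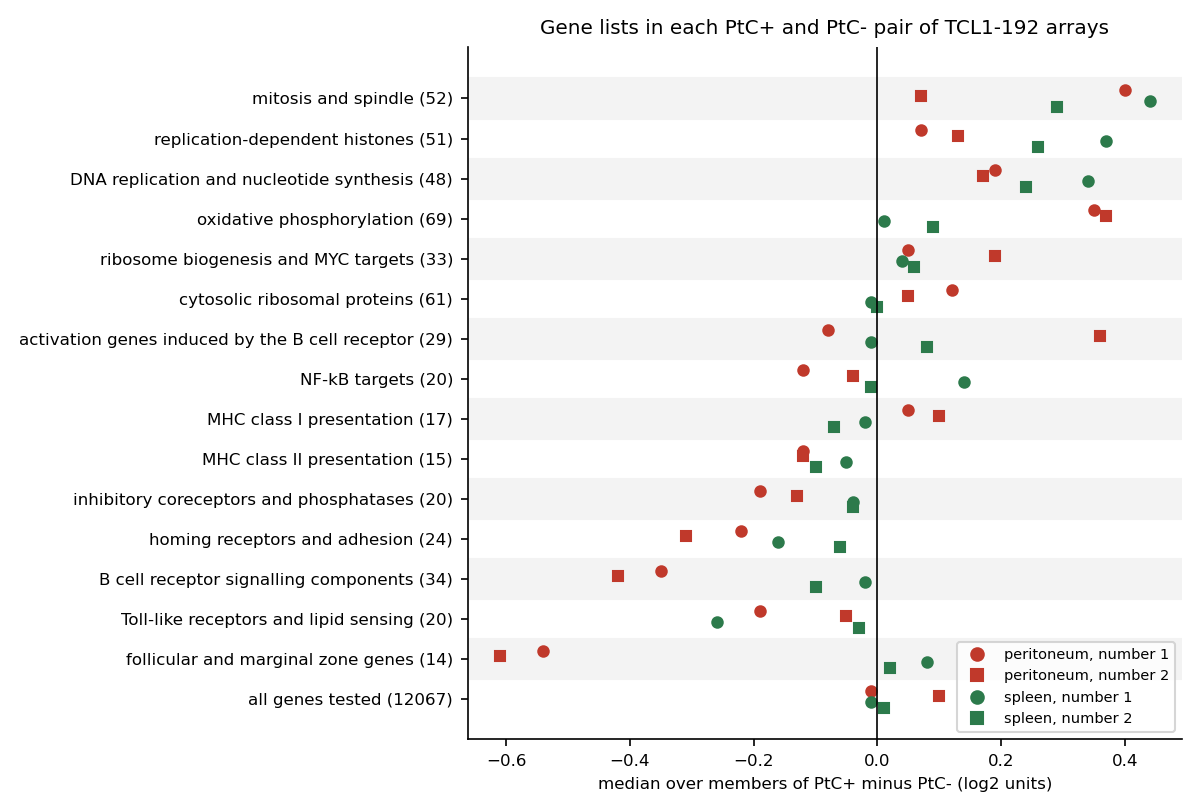
Median over the members of 15 gene lists and of all genes tested of the difference PtC+ minus PtC- (x axis, log2 units) in each pair of arrays with the same tissue and number, with the number of genes tested in brackets. The 3 lists of cell division at the top lie above 0 in all 4 pairs, with mitosis genes at 0.07 against 0.10 for all genes in the number 2 peritoneal pair, and the follicular and marginal zone list near the bottom lies far below 0 in the peritoneal pairs only.

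Growth genes showed smaller differences. Ribosome biogenesis and MYC target genes had a median of 0.09, with 21 of 33 higher in PtC+ cells, and cytosolic ribosomal proteins a median of 0.03, with 38 of 61 higher. The cyclin-dependent kinase gene Cdk4 differed by 0.30 ± 0.13 on its brighter probe, with PtC+ above PtC- arrays in both tissues, and by 0.06 on its other probe. The transferrin receptor Tfrc, which brings iron into dividing cells, was at 8.93 and 8.93 in PtC+ against 8.18 and 8.20 in PtC- peritoneum, while its splenic difference was 0.13 ± 0.18.

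Oxidative phosphorylation genes were higher in PtC+ than PtC- cells mainly in the peritoneum. Their peritoneal median was 0.37, with 57 of 69 above 0, and the splenic median was 0.02, with 36 of 69 above 0. The 2 peritoneal pairs gave 0.35 and 0.37, and the splenic pairs 0.01 and 0.09. The difference between tissues was not tested for any list. Ndufb7, a subunit of complex I, measured 9.24 and 9.65 in PtC+ against 8.21 and 8.77 in PtC- peritoneum, and 8.86 and 8.88 in PtC+ against 8.79 and 8.83 in PtC- spleen. Its peritoneal difference was 0.96 ± 0.25 and its splenic one 0.06 ± 0.25. Cox7a1 and Cox7b, subunits of cytochrome c oxidase, had larger differences over both tissues, 0.86 ± 0.37 and 0.85 ± 0.35. Both were undetected on the PtC- peritoneal array of number 2, and without that number's pair the differences were 0.41 and 0.31. Peritoneal macrophage markers summed to 30958 in PtC+ against 31836 in PtC- cells in the number 1 pair, and to 57126 against 46133 in the number 2 pair. The 4 erythroid markers summed to 33597 in PtC+ against 22001 in PtC- cells in the number 1 pair, and to 19783 against 21700 in the number 2 pair. Their part in the result was not tested.

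Genes of the B cell receptor pathway went the other way. The signalling components that carry the receptor's signal to calcium, NF-kB and MAP kinases were lower in PtC+ than PtC- cells for 30 of 34 tested members, against 46.7% of all genes, with a median of -0.18. With median centring that median was 0.03, below the 0.15 of all genes, and without the number 2 peritoneal pair it was -0.10. None passed the test, and 1 of 34 had an unadjusted p under 0.05. That member was lower in PtC+ cells, as were 2.24% of all genes at this threshold. The median was -0.36 in peritoneum and -0.03 in spleen, and the pairs gave -0.35 and -0.42 in peritoneum and -0.02 and -0.10 in spleen. In all 4 pairs 9 members (26.5%, against 8.03% of all genes) were below 0.

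Pik3ap1, the adaptor BCAP that activates PI3-kinase, was at 9.98 and 9.50 in PtC+ against 10.53 and 10.52 in PtC- peritoneum, and at 10.67 and 10.77 in PtC+ against 10.70 and 10.93 in PtC- spleen. It differed by -0.44 ± 0.20 on its brighter probe and by -0.06 on the other, and its splenic arrays overlapped. Cd81, a tetraspanin of the B cell surface, differed by -0.32 ± 0.16 (0.04 with median centring) with no overlap in either tissue, and Pik3r1, the regulatory subunit of PI3-kinase, by -0.32 ± 0.16. Ptprc, which encodes the phosphatase CD45, differed by -0.61 ± 0.24 on its brighter probe, but its other probe gave 0.28, and median centring gave 0.17, so its direction is uncertain.

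**Figure D3:**
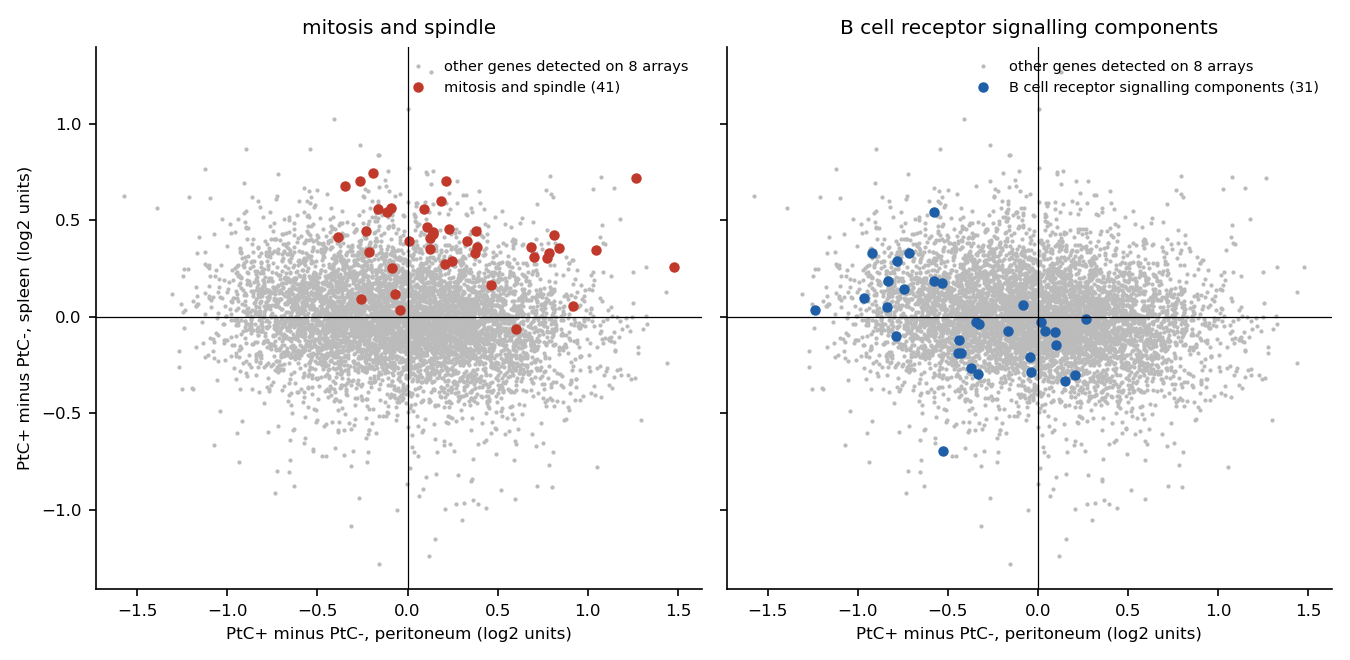
Difference PtC+ minus PtC- in peritoneum (x axis) and in spleen (y axis), both in log2 units, for the 6993 genes detected on all 8 TCL1-192 arrays, with 41 mitosis and spindle genes in red (left) and 31 B cell receptor signalling genes in blue (right). Of the mitosis genes 27 are above 0 in both tissues and 0 below 0 in both, and of the receptor signalling genes 12 are below 0 in both and 0 above 0 in both. Of all 6993 genes 19.8% are above 0 in both and 24.8% below 0 in both. Below 0 in peritoneum and above 0 in spleen lie 13 mitosis genes, 12 receptor signalling genes and 1890 of all genes.

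The inhibitory coreceptors and phosphatases, which restrain the receptor, had a median of -0.11 (0.13 with median centring), with 13 of 20 not above 0. Cd22, a sialic acid-binding coreceptor, was at 11.60 and 11.04 in PtC+ against 12.52 and 12.07 in PtC- peritoneum, and at 12.11 and 11.64 in PtC+ against 12.08 and 11.51 in PtC- spleen. Inpp5d, the lipid phosphatase SHIP1, was at 7.96 and 7.61 in PtC+ against 8.71 and 8.98 in PtC- peritoneum, and at 9.17 and 9.16 in PtC+ against 8.96 and 8.88 in PtC- spleen. In peritoneum the classes of both genes did not overlap, with differences of -0.97 ± 0.32 for Cd22 and -1.06 ± 0.20 for Inpp5d, against 0.07 ± 0.32 and 0.24 ± 0.20 in spleen. For Inpp5d the difference between tissues was 1.30 ± 0.29, at an adjusted p of 0.384. Ceacam1, another inhibitory receptor, differed by -0.90 ± 0.37 in peritoneum and -0.14 ± 0.37 in spleen.

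Genes that receptor stimulation induces had a median of 0.15, with 20 of 29 higher in PtC+ cells, but the pair medians were -0.08, 0.36, -0.01 and 0.08, for peritoneal numbers 1 and 2 and splenic numbers 1 and 2. The MAP kinase phosphatase Dusp1 differed by -0.43 ± 0.18, without overlap in either tissue. NF-kB targets had a median of -0.07 (0.08 with median centring), with 8 of 20 higher, and the NF-kB subunit Rel, detected on 7 of the 8 arrays, differed by 0.58 ± 0.27.

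The follicular and marginal zone genes, which mark the conventional B cell types other than B-1, had a median of -0.53 in peritoneum and 0.01 in spleen. Of 14 tested, 3 were higher in PtC+ than PtC- peritoneum and 7 in spleen. The transcription factor Spib was at 10.07 and 9.75 in PtC+ against 10.69 and 10.70 in PtC- peritoneum, and at 11.03 and 11.10 in PtC+ against 11.14 and 11.30 in PtC- spleen. Foxo1, a transcription factor that AKT restrains, was at 8.89 and 7.93 in PtC+ against 9.62 and 9.10 in PtC- peritoneum, and its splenic arrays overlapped at -0.10 ± 0.35. The B-1 genes had a median of 0.08, with 15 of 25 higher, but of -0.04, with 10 of 25 higher, without the number 2 peritoneal pair. Among the members that were lower, Spn, which encodes CD43, differed by -0.35 ± 0.17, and Tnfrsf13b, the receptor TACI, by -0.31 ± 0.14. Spn was undetected on the PtC- peritoneal array of number 2. These 2 genes do not stand for the list, of which 15 of 25 were higher on the 8 arrays.

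Homing receptors and adhesion genes were lower in PtC+ than PtC- cells for 18 of 24 tested, against 46.7% of all genes, with a median of -0.16. With median centring that median was -0.0, below the 0.15 of all genes, and 12 of 24 were higher. In all 4 pairs 8 members (33.3%, against 8.03% of all genes) were below 0, and 3 (12.5%, against 8.59%) were above 0. Cxcr5, the receptor that draws B cells to follicles, was at 12.49 and 12.20 in PtC+ against 12.83 and 12.86 in PtC- peritoneum, and at 12.50 and 12.71 in PtC+ against 12.79 and 12.90 in PtC- spleen. Its classes did not overlap within either tissue, and the difference was -0.37 ± 0.15. The P-selectin ligand gene Selplg differed by -0.51 ± 0.19 and Edg6, the sphingosine 1-phosphate receptor now called S1pr4, by -0.41 ± 0.16, both without overlap.

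Antigen presentation genes differed by little. MHC class II genes had a median of -0.14, with 2 of 15 higher in PtC+ cells, but a median of 0.20 with median centring, above the 0.15 of all genes. The class II modulator H2-Oa was at 12.51 and 12.19 in PtC+ against 12.90 and 12.69 in PtC- peritoneum, and at 11.53 and 11.66 in PtC+ against 12.01 and 11.94 in PtC- spleen. Of MHC class I genes, with a median of -0.01 (0.31 with median centring and 0.02 without the number 2 peritoneal pair), the peptide loader Tapbp differed by -0.87 ± 0.21 and the peptide transporter Tap2 by -0.54 ± 0.19, each without overlap in either tissue. On its brighter probe Tapbp was at 8.05 and 7.21 in PtC+ against 8.86 and 8.55 in PtC- peritoneum, and at 7.88 and 8.0 in PtC+ against 8.65 and 8.56 in PtC- spleen, and its other probe differed by -0.30.

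Innate sensing genes had a median of -0.18, with 4 of 20 Toll-like receptor and lipid sensing genes higher in PtC+ cells. Irak3, an inhibitor of Toll-like receptor signalling, differed by -0.50 ± 0.20, and Cd180, a surface receptor of B cells related to Toll-like receptors, by -0.26 ± 0.15. Interferon-stimulated genes had a median of 0.15, which was 0.00 without the number 2 peritoneal pair. Among them Ifi35 differed by 0.43 ± 0.18. The TNF receptor family genes had no settled direction, with a median of -0.02, 0.09 with median centring and 0.03 without the number 2 peritoneal pair. Among them Tnfrsf18 differed by 0.62 ± 0.22 on its brighter probe and by 0.23 on the other. Fas, the death receptor, differed by 0.86 ± 0.33 and was detected on 3 PtC+ arrays and 1 PtC- array.

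Secretory pathway genes gave a median of 0.00, with members on both sides, 0.15 with median centring and -0.11 without the number 2 peritoneal pair. Xbp1, the transcription factor of the unfolded protein response, was at 11.59 and 11.48 in PtC+ against 12.04 and 11.92 in PtC- peritoneum, and at 10.77 and 10.57 in PtC+ against 10.81 and 11.07 in PtC- spleen. It differed by -0.36 ± 0.15, and Edem1, which sends misfolded proteins to degradation, by -0.70 ± 0.21. Sec61b, a subunit of the channel into the endoplasmic reticulum, differed by 0.41 ± 0.15. None of the 3 overlapped between classes within a tissue, but Edem1 was undetected on both number 2 peritoneal arrays.

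The immunoglobulin genes bear directly on what the cells bind. Of 94 immunoglobulin symbols 15 were tested, and 4 lay lower on all PtC+ than all PtC- arrays in both tissues, as 3.65% of all genes did. These 4 were IGHV9S5 and each of the 3 heavy chain variable genes chosen for their link to phospholipid binding, Igh-V11, IGHV12S1 and Igh-VS107. Igh-V11, of the family used by many PtC-binding receptors, was at 13.93 and 14.01 in PtC+ against 14.65 and 14.84 in PtC- peritoneum, and at 14.21 and 14.32 in PtC+ against 14.65 and 15.07 in PtC- spleen. It differed by -0.68 ± 0.16, at signals near the array ceiling of 15.48. IGHV12S1, of the VH12 family, was at 11.87 and 11.71 in PtC+ against 12.34 and 12.55 in PtC- peritoneum, and at 11.57 and 11.94 in PtC+ against 12.04 and 12.73 in PtC- spleen, a difference of -0.64 ± 0.19.

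Igh-VS107, of a family known from antibodies to phosphorylcholine, was at 11.67 and 11.14 in PtC+ against 12.37 and 11.76 in PtC- peritoneum, and at 11.63 and 11.71 in PtC+ against 12.40 and 12.56 in PtC- spleen. It differed by -0.73 ± 0.19. The light chain gene IGKV9-128 lay between 15.04 and 15.35 on all 8 arrays, close to the array ceiling, with a difference of -0.03 ± 0.13 (0.34 with median centring). Probes of variable gene families may detect several members, so these signals are not those of 1 rearranged gene. Without the number 2 peritoneal pair the heavy chain differences were -0.64 for Igh-V11, -0.58 for IGHV12S1 and -0.77 for Igh-VS107.

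The lone arrays of other genotypes give these signals a setting. Igh-V11 was at 13.66 on the PtC+ and 12.88 on the PtC- wild type array, and at 13.47 on the PtC+ and 12.58 on the PtC- young TCL1 array. IGHV12S1 was at 12.11 on the PtC+ and 10.44 on the PtC- wild type array, and at 12.63 on the PtC+ and 10.99 on the PtC- young TCL1 array. In these 2 single pairs both genes were thus higher in PtC+ cells, the direction opposite to the TCL1-192 pairs, with no test. Igh-VS107 was at 7.47 on the PtC+ and 8.01 on the PtC- wild type array, and at 8.23 on the PtC+ and 9.78 on the PtC- young TCL1 array, below its level of 11.14 to 12.56 on the TCL1-192 arrays.

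**Figure D4:**
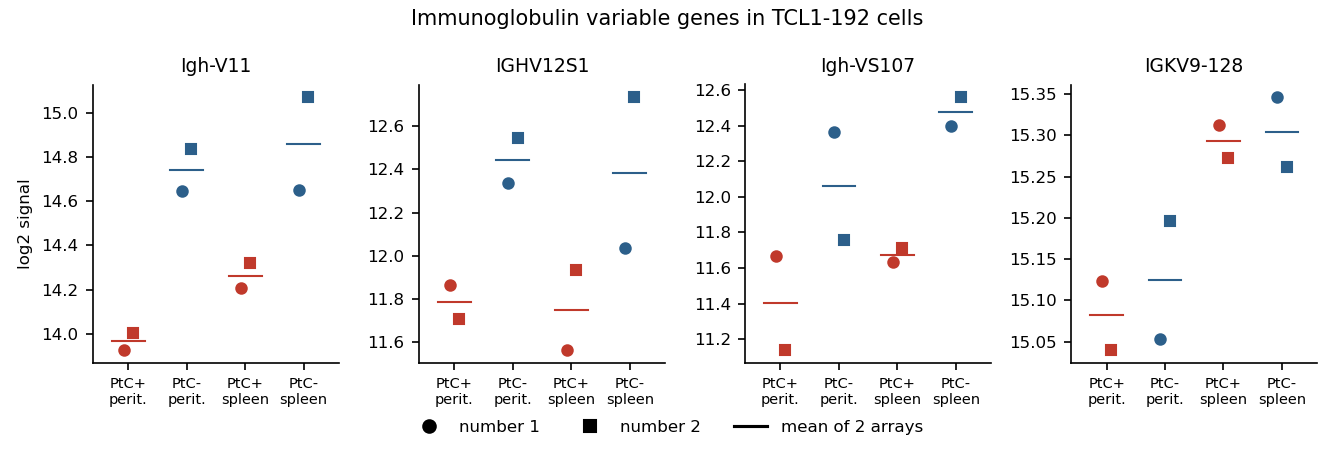
Log2 signal (y axis, its own range in each panel) of 4 immunoglobulin variable genes on the 8 TCL1-192 arrays, PtC+ in red and PtC- in blue, with circles for number 1, squares for number 2 and a line at the mean of 2 arrays. Igh-V11, IGHV12S1 and Igh-VS107 are lower on both PtC+ than on both PtC- arrays in each tissue, while IGKV9-128 lies between 15.04 and 15.35, close to the array ceiling of 15.48.

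Other genes with large differences over both tissues had varied roles. Sct, the gut hormone secretin, was at 7.91 and 7.92 in PtC+ against 8.48 and 8.82 in PtC- peritoneum, and at 9.17 and 9.18 in PtC+ against 10.29 and 9.89 in PtC- spleen, a difference of -0.82 ± 0.16. The zinc finger gene Zfp691 differed by -0.84 ± 0.18, the adaptor Dok4 by -0.78 ± 0.19 and Jmjd3, the histone demethylase now called Kdm6b, by -0.81 ± 0.28. Without the number 2 peritoneal pair these were -0.80 for Sct, -0.75 for Zfp691, -0.68 for Dok4 and -0.53 for Jmjd3. Dok4 was undetected on both PtC+ splenic arrays, where PtC- cells were at least 1.43-fold higher. Brsk2, a serine/threonine kinase, was detected on all 4 PtC- arrays and no PtC+ array, with PtC- cells at least 1.48-fold higher. The actin capping gene Capza1 was at 7.02 and 7.03 in PtC+ against 7.84 and 8.38 in PtC- spleen, and differed by -0.70 ± 0.21 over both tissues.

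Several of the larger differences rested in part on the PtC- peritoneal array of number 2. Arl6, a small GTPase of the primary cilium, was at 7.77 and 7.85 in PtC+ against 6.91 and 5.21 in PtC- peritoneum, the last of these undetected. It differed by 1.05 ± 0.40, and by 0.52 without the number 2 pair. Arfl4, now Arl4d and undetected on the PtC+ splenic array of number 2, differed by -0.94 ± 0.37, and by -0.40 without the number 2 peritoneal pair. Nmral1, Lime1 and Ccdc84 were undetected on the PtC- peritoneal array of number 2. Their differences of 0.87, 0.86 and 0.85 were 0.52, 0.51 and 0.42 without the number 2 peritoneal pair. Trim35 was undetected on both PtC+ splenic arrays, where PtC- cells were at least 1.50-fold higher. Rnu65, a small nucleolar RNA gene, differed by 0.85 ± 0.22 and by 0.68 without the number 2 pair. The actin regulator Avil differed by -0.72 ± 0.30, and Cnot1, a scaffold of mRNA deadenylation, by -0.73 ± 0.18 on its brighter probe and 0.08 on the other.

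In the peritoneum alone, 0 genes passed the test (limma, lowest adjusted p 0.171), while 2462 (20.4%) had an unadjusted p under 0.05, of which 1355 (11.2%) were higher and 1107 (9.17%) lower. Differences beyond 1 were seen for 703 genes. The count passing was 2590 without the PtC- peritoneal array of number 1, where the number 2 array stands alone for PtC- cells, 256 with an intensity trend and a robust variance prior together and 2 with median centring. The highest moderated t belonged to Tyms, Hist2h2bb, Aif1 and Mcart6 on the higher side, and to Ppp1r10, Tnrc6c, Mfhas1 and Upf1 on the lower side. Ppp1r10, a regulator of protein phosphatase 1 in the nucleus, was at 9.83 and 9.56 in PtC+ against 10.82 and 10.84 in PtC- peritoneum, a difference of -1.13 ± 0.18. Tnrc6c, a partner of Argonaute in microRNA silencing, differed by -1.10 ± 0.18 and Mfhas1, undetected on the PtC+ peritoneal array of number 2, by -1.23 ± 0.21. Mcart6, a mitochondrial carrier now called Slc25a53, was undetected on both PtC- peritoneal arrays, with PtC+ cells at least 1.60-fold higher. Aif1, a macrophage-associated gene, was at 6.03 and 6.05 in PtC+ and undetected on both PtC- peritoneal arrays, too near the limit for a fold.

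In the spleen alone, 0 genes passed (lowest adjusted p 1), 325 (2.69%) had an unadjusted p under 0.05, of which 196 (1.62%) were higher and 129 (1.07%) lower, and 18 differed by more than 1. Espl1, the separase that releases sister chromatids, was at 8.79 and 8.65 in PtC+ against 7.46 and 7.93 in PtC- spleen, a difference of 1.02 ± 0.22, and differed by -0.41 ± 0.22 in peritoneum. Of the 4 genes with the highest moderated t, the others were the histones Hist2h2ab, Hist1h3c and Hist1h2ag. On the lower side, Crry, a regulator of complement, was at 6.17 and 6.56 in PtC+ against 7.48 and 7.73 in PtC- spleen. Bmi1, a Polycomb protein, was at 6.67 and 6.71 in PtC+ against 7.81 and 7.98 in PtC- spleen. Their splenic differences were -1.24 ± 0.22 and -1.20 ± 0.22, against 0.12 ± 0.22 and 0.27 ± 0.22 in peritoneum, where Bmi1 was undetected on the PtC- array of number 2. Cyp39a1, an oxysterol hydroxylase, differed by -1.28 ± 0.25 in spleen, and Cox6a2, a subunit of cytochrome c oxidase, was detected there in PtC- cells only, at least 1.45-fold higher than in PtC+ cells.

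Whether the PtC difference itself differed between spleen and peritoneum was tested for each gene, as spleen minus peritoneum. Again 0 genes passed (lowest adjusted p 0.384), and 1477 (12.2%) had an unadjusted p under 0.05, 669 (5.54%) above 0 and 808 (6.7%) below. Without the PtC- peritoneal array of number 1 the count passing was 1499. The differences of the tissues were little related across genes, with a Pearson r of -0.14 over the 6993 genes detected on all 8 arrays and -0.07 over all 12067, which are not independent replicates. Within a tissue, the number 1 and number 2 pairs had an r of 0.67 in peritoneum and 0.36 in spleen over the 6993 genes, and of 0.33 and 0.26 over all 12067, given as descriptions. These pairs share no array but were normalized together.

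Genes at the ends of this test crossed 0 between tissues. Pou2f1, the octamer-binding factor OCT1, was at 8.10 and 8.07 in PtC+ against 8.94 and 9.03 in PtC- peritoneum, and at 9.74 and 9.73 in PtC+ against 9.19 and 9.18 in PtC- spleen. Its difference between tissues was 1.45 ± 0.23, and its 4 probes disagreed in sign over both tissues (-0.21 to 0.16). Setd1b, a histone H3 methyltransferase, differed between tissues by 1.47 ± 0.26, Mfhas1, with that undetected array, by 1.75 ± 0.30 and Upf1, the helicase of nonsense-mediated decay, by 1.45 ± 0.24, the last with 3 probes of mixed sign over both tissues (-0.22 to 0.39). Polr3g, a subunit of RNA polymerase III, was at 6.63 and 6.81 in PtC+ against 5.84 and 5.57 in PtC- peritoneum, the last of these undetected, and at 5.75 and 5.78 in PtC+ against 6.37 and 6.60 in PtC- spleen. Skp1a, a subunit of SCF ubiquitin ligases, differed between tissues by -1.50 ± 0.28, and the tubulin gene Tuba3a and Mcart6 were undetected on both PtC- peritoneal arrays, where PtC+ cells were at least 1.23-fold and 1.60-fold higher.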

How the data were processed

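The 8 TCL1-192 arrays were compared, normalized with the other 4. Per the labels' protocols, RNA was labelled with the Ambion MessageAmp kit. The deposited non-normalized table held an intensity and, per the file headers, a detection p-value for each of 45281 probes. The authors' second deposited table, of quantile normalized intensity, was an alternative.

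Calculations used R 4.3.3 and limma 3.58.1, with neqc (controls inferred from detection p-values, offset 16). Probes with a detection p under 0.05 on at least 2 of the 8 arrays were kept (16508), and the brightest represented each symbol, which gave 12067 genes. The RefSeq table held 7534 of the symbols and 2397 more as 1 gene's synonym.

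Differences over both tissues came from a fit with tissue and PtC class, and others from a fit with 1 mean per group. Two-sided p-values were adjusted by Benjamini-Hochberg with a threshold of 0.05, and the procedure was tested on simulated data. Arrays of the same tissue and number deviated together (r = 0.223 in peritoneum, 0.276 in spleen), so numbers were taken as pairs, and a fit with that block was an alternative.

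The comparison and the gene lists were chosen with earlier results of these data known. Named genes were the 12 largest differences each way among genes with an unadjusted p under 0.05, no overlap in either tissue and detection on the whole higher class, the 4 highest and 4 lowest moderated t within and between tissues (detected on the whole higher class, or between tissues on at least 4 arrays), up to 4 members per list, and defining markers. Unnamed gene models were left out.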

Additional observations from a re-analysis of the deposited data

Results flagged for a closer look

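The PtC- peritoneal array of number 2 lay far from the other 3 PtC- arrays on 3 measures of quality. It detected 10711 probes, its median signal was 219.22, and its undetected probes had a mean signal of 205.42. Chance alone marks about 1 in 20 such groups on a measure, and the 3 measures are not independent. The part of this array in the results was not tested beyond leaving it out.

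The median PtC difference of 5 gene lists had one sign in both peritoneal pairs and the opposite sign in both splenic pairs. Given as spleen minus peritoneum, the difference was 0.54 for follicular and marginal zone genes, -0.41 for cholesterol and fatty acid synthesis genes and -0.19 for interferon-stimulated genes. It was -0.03 for MHC class I presentation genes and -0.03 for immunoglobulin diversification genes. These differences between tissues were not tested.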

How the results depend on the processing

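Across 20 alternatives, 19 of them planned, the count of genes passing over both tissues and in spleen stayed at 0 except where stated here. In peritoneum it was 2 with normexp and median centring, 256 (101 higher, 155 lower) with an intensity trend and robust prior, and 0 to 2590 when arrays were left out in turn. Without the PtC- peritoneal array of number 1 it was 2590 in peritoneum and 1499 for the difference between tissues, where leaving out any other array gave 0. The lone PtC- peritoneal array in that fit is the one with raised background, and its group adds no spread of its own. With 1 mean per group, an alternative in which each array was also left out after seeing the data, the count over both tissues was 0, and 1402 without that same array. The replicate block (pairs of the same tissue and number) gave 0 genes in all 4 comparisons, with 674, 3031, 516 and 1989 at an unadjusted p under 0.05 over both tissues, in peritoneum, in spleen and between tissues, and changed no call. Normexp with median centring kept the reported background correction and changed only the scaling between arrays. With it, the median over all genes was 0.15 over both tissues (0.02 as reported) and 0.28 in peritoneum. Relative to that shift the medians of mitosis (0.36), DNA replication (0.27), histone (0.33) and oxidative phosphorylation genes (0.34) were above all genes, that of receptor signalling genes (-0.12) below, and that of MHC class II genes 0.05 above. Ptprc (0.17), Cd81 (0.04) and IGKV9-128 (0.34) changed sign with it. The cause was not tested. With single arrays left out IGKV9-128 ranged from -0.05 to 0, and it was 0.02 without both peritoneal number 2 arrays, with and without the block. Of 97 results for named genes 94 never changed sign. The medians of the mitosis, DNA replication, histone, oxidative phosphorylation, receptor signalling, follicular, homing and Toll-like receptor lists kept their side of the median of all genes in all 20 alternatives. Not all of these alternatives could change a sign. The replicate block and the intensity trend with robust prior leave every difference over both tissues as it was. The block without the number 2 peritoneal pair repeats the differences of the fit without that pair. Signal over background limits the genes called undetected, most on the PtC- peritoneal array of number 2, whose lowest detected log2 signal was 6.46 against 5.51 to 5.69 on the other TCL1-192 arrays.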

Other observations

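The lone pairs of young TCL1 and wild type arrays have no replicates and no test, and gave other values for the lists that stood out in TCL1-192 cells. The mitosis and spindle list had a median PtC difference of 1.27 in the young TCL1 pair and 0.19 in the wild type pair. DNA replication genes had medians of 0.80 and 0.10 in these pairs, and histones -0.45 and -0.18. Receptor signalling genes were at 0.11 in the young TCL1 pair and -0.14 in the wild type pair, and oxidative phosphorylation genes at -0.33 and 0.30. Markers of other cell types differed in these pairs too. Macrophage markers had medians of 1.05 in the young TCL1 pair (14 of 19 above 0) and -0.48 in the wild type pair (1 of 19), T cell markers -1.86 (0 of 5) and -0.03 (2 of 5), and erythroid markers -1.25 (1 of 4) and -0.51 (2 of 4). Their part in the list values was not tested.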
